A study of Mus musculus with 10 samples.

Results

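Mitochondrial ribosomal proteins are the protein components of the ribosome that works inside mitochondria. The rows whose gene symbol is Mrpl or Mrps followed by a number were taken, which gave 78 genes of the 22329 in the table, 49 named for the large subunit and 29 for the small subunit. Members were picked on their symbols, but the family itself was chosen by its levels in the same tumour comparison, known from earlier work on these data, so the comparison of the groups is given as a description of these libraries. RNA was sequenced from 10 subcutaneous tumours of B16F10, a mouse melanoma line, grown in C57BL6/J mice from 500000 injected cells, and the labels give no age or sex. All tumours received 80 µg of mRNA once, injected into the tumour, and were taken 7 days later: 5 control tumours (libraries 1 to 5) received luciferase mRNA, and 5 cytokine tumours (libraries 6 to 10) received 20 µg each of 4 mRNAs, for a murine single-chain IL-12, IL-15sushi, GM-CSF and IFNalpha. Values are TPM, a transcript share corrected for transcript length, and they carry no sequencing depth.

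All proteins of the mitochondrial ribosome are encoded in the nucleus, made in the cytosol and imported, where they assemble on ribosomal RNAs transcribed from mitochondrial DNA. The small subunit binds the messenger RNA and decodes it, and the large subunit joins the amino acids and passes the new chain to the inner membrane. Its products are the few subunits of the respiratory chain and ATP synthase that mitochondrial DNA encodes. Some of its proteins descend from bacterial ribosomal proteins, and others were gained in mitochondria.

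Promoter sequence was examined because some members are known targets of the ETS factor GABP, of NRF1 or of YY1, which control many nuclear genes for mitochondrial proteins. RefSeq promoter windows of build GRCm38.p6, from 250 bases before to 50 bases after the annotated start, were matched for 69 of the 78 members. The letters searched, on both strands, were CCGGAAG for ETS factors, GCGCA, any base, then GCGC for NRF1 (read on the other strand as GCGC, any base, then TGCGC) and AAGATGGCG for YY1. The stretches shown lie just upstream of the start and were chosen because Mrpl18 and Mrpl50 were the 2 members past the threshold, Mrps21 had the lowest log2 change, Mrpl12 and Mrpl45 carry the same NRF1 letters but lie on opposite sides of 0, and Mrps11 shares its upstream sequence with another member. Capitals mark NRF1 letters, and the stretches without capitals hold none of the 3 motifs. Farther out, Mrpl18 has ETS letters 240 bases before its start, near the start of the gene Tcp1, 238 bases away. Mrps11 has YY1 letters 108 bases before its start, beyond the start of Mrpl46, 42 bases away. Mrps21 also has ETS letters 18 bases after its start, and Mrpl45 has NRF1 letters 15 bases after.
Mrpl18: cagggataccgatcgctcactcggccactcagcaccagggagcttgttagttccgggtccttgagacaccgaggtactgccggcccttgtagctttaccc
Mrpl50: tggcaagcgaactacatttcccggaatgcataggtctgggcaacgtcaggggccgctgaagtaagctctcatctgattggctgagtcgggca
Mrps21: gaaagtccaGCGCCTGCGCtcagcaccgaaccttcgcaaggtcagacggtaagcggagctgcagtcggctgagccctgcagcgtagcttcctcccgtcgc
Mrpl12: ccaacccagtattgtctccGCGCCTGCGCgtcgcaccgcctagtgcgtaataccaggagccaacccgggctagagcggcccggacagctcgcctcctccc
Mrpl45: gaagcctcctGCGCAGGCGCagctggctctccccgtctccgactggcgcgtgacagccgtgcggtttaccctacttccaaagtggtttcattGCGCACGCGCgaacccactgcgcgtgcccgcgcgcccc
Mrps11: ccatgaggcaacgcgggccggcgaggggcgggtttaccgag
Each is written 5′ to 3′ on the strand of its gene and ends at the base before the start. In GRCm38.p6 they lie at chr17:12916092-12916191 for Mrpl18, chr4:49521084-49521175 for Mrpl50 and chr3:95871515-95871614 for Mrps21, all on the minus strand. On the plus strand lie chr11:120484537-120484636 for Mrpl12, chr11:97315586-97315715 for Mrpl45 and chr7:78783090-78783130 for Mrps11. The last of these is all of the sequence between the start of Mrps11 and the start of Mrpl46, which is transcribed in the other direction, so a small and a large subunit gene share it.

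The ETS letters were in 26 of the 69 matched members (37.7%), against 20.0% of the 9654 tested genes with a window and 9.93% of the 27025 genes of the promoter table. NRF1 letters were in 13 members (18.8%, against 11.5% and 5.19%), and YY1 letters in 8 (11.6%, against 3.58% and 1.64%). At least 1 of the 3 motifs stood in 41 members. By subunit, the ETS letters were in 15 of 43 large and 11 of 26 small members, and the NRF1 letters in 10 large and 3 small. Members with the ETS letters had a median log2 change between the groups of -0.44 and the others -0.53. For the NRF1 letters the medians were -0.41 with and -0.52 without, and for the YY1 letters -0.70 with and -0.48 without. These shares describe letters in a window; no binding was measured.

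All 78 members were above 0 in every library and passed the filter for testing, which asked for 5 or more libraries with a TPM of 1 or more. Control means ran from 6.26 TPM (Mrpl23) to 728 TPM (Mrps21), with a median of 47.9. The median was 59.0 TPM for large subunit members and 35.1 TPM for small. Spread between control tumours was modest: the median coefficient of variation of the members was 19.9%, against 28.0% for the 12497 genes tested. These sets were not matched for abundance, and the filter let in genes with a TPM near 1. The 4 most abundant large subunit genes in control tumours were Mrpl52, Mrpl42, Mrpl33 and Mrpl30, at 419, 418, 255 and 190 TPM, and the first 2 did not differ beyond their SDs of 39.3 and 54.8. After Mrps21, the most abundant small subunit genes were Mrps25, Mrps18c and Mrps24, at 140, 107 and 78.5 TPM. At the low end were Mrpl27 and Mrpl23 (9.38 and 6.26 TPM) and Mrps23 and Mrps33 (14.0 and 10.3 TPM).

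The libraries differed in ways that touch all results below. T cell markers summed to between 0.610 and 32.0 TPM in control and between 56.4 and 3575 TPM in cytokine tumours, and all 5 tested of 6 rose. Macrophage and monocyte markers ran from 106 to 313 and from 529 to 12823 TPM, and 6 of 6 rose, while proliferation markers ran from 728 to 884 and from 120 to 726 TPM, with 4 of 6 fallen. The 7 melanocyte markers summed to 2569 to 16214 TPM in control tumours and 4067 to 16635 TPM in 4 cytokine tumours, but to 41.9 TPM in library 7, so the defining genes of the labelled tumour were nearly lacking there; none of the 7 passed limma's test, and 0 did at an unadjusted p under 0.05. Mitochondrially encoded genes took 16.2% to 27.9% of the TPM in control and 4.44% to 19.2% in cytokine tumours. Library 10 lay closest to the controls in the T cell, macrophage, proliferation and mitochondrially encoded sums. The part of these differences in the results was not tested, and in bulk tissue fewer cells of a type and less RNA per cell cannot be told apart.

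Most members were lower on average in the cytokine tumours, and few passed the threshold over all genes tested. Of the 78 log2 changes, 67 lay below 0 (85.9%, against 60.3% of all genes tested), 42 of 49 in the large and 25 of 29 in the small subunit. The median change was -0.51 on the log2(TPM + 1) scale, against -0.18 for all genes tested. With limma, 2 members fell at an adjusted p under 0.05 (2.56% of the members), Mrpl18 and Mrpl50, where 3.02% of all genes tested fell, and nothing is read from that share. None rose, over all genes (7.41% of which rose), nor at an unadjusted p under 0.05 (14.4% of all genes). At an unadjusted p under 0.05, 27 members were lower (34.6%, against 16.1% of all genes). The 2 groups did not overlap in 3 members, all lower (3.85%, against 3.78% of all genes lower and 5.45% higher): Mrpl50, and Mrpl28 and Mrps31, the last 2 named after their values were seen.

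**Figure D1:**
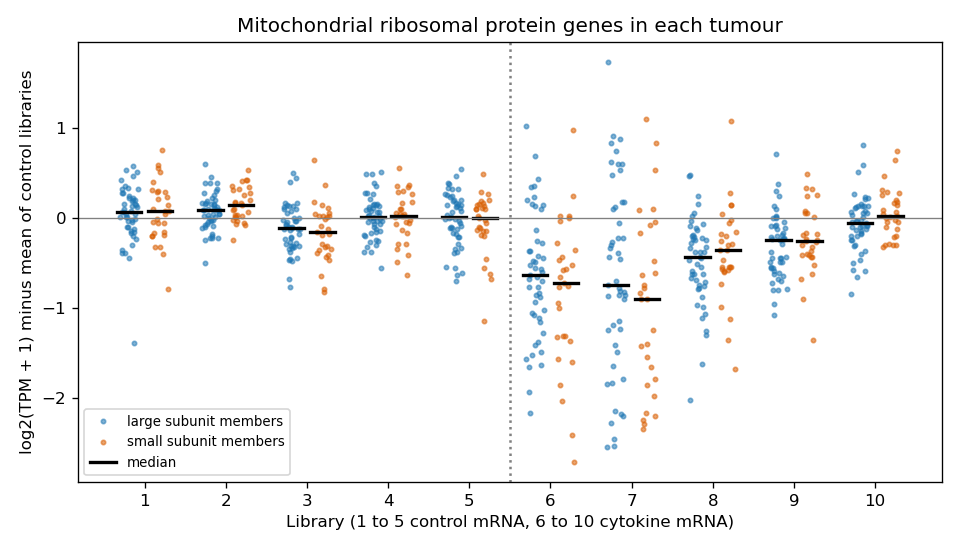
Each point is 1 of the 78 genes in 1 library: its log2(TPM + 1) minus its mean over the 5 control libraries, with large subunit members in blue, small subunit members in orange and black bars at the medians. Medians in libraries 6 to 9 lie between -0.25 and -0.91, and those of library 10 lie at -0.05 and 0.02, among the control libraries.

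The count depended on which libraries were kept. Without cytokine library 10, limma called 20 members lower (against 12.8% of all genes). Without libraries 6 and 7 together it called none (0 of 12071 genes lower). It called none either without control library 1, 2, 3 or 4 (1.15%, 0.629%, 0.837% and 0.694% of all genes were lower there) or without cytokine library 6, 8 or 9 (0.114%, 0.580% and 0.896%). It called 1 member without control library 5 (0.765% of all genes) and 3 without library 7 (1.61%). Weighting the libraries by their quality gave 13 members, against 9.41% of all genes. In libraries 6, 7, 8 and 9, 56, 51, 42 and 36 members lay below every control tumour, or 71.8%, 65.4%, 53.8% and 46.2%; of all genes tested, 40.5%, 48.7%, 27.9% and 25.3% did. In library 10 it was 9 members (11.5%, against 11.9% of all genes), and 12 lay above every control (15.4%, against 16.0% of all genes). In 20 members (25.6%, against 13.4% of genes tested) libraries 6 to 9 all lay below all controls. Library 7 also had members above every control tumour, 13 of 78 (16.7%, against 26.3% of all genes), among them Mrpl33, Mrpl54 and Mrps17. The SD of the members' deviations in it was 1.04 on the log2 scale, against 0.20 to 0.33 in control libraries, and over all genes tested it was 1.85 in library 7. Median transcript length had little relation to the members' deviations, with Spearman's rho between -0.16 and 0.17 over the 10 libraries (78 genes, which share each library).

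The scaling of the libraries moved the size but not the direction of the medians. After median-ratio scaling the large and small subunit medians were -0.31 and -0.37, with -0.03 for all genes, 60 members below 0 and 2 called lower (Mrpl22 and Mrpl50, against 2.95% of all genes). After rescaling without mitochondrially encoded genes they were -0.69 and -0.74, with -0.36 for all genes, and 9 members were called lower (against 7.08% of all genes). Rescaling without the 50 most abundant genes gave 4 (against 4.47%), and testing without the filter gave 1 (against 0.971%).

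Large and small subunit genes had nearly the same median change. Their median log2 changes were -0.48 and -0.53, a difference of 0.05. The same difference taken from the median deviations within each library had a pooled SD between libraries of 0.077. The mean log2(TPM + 1) of the large subunit genes was 5.75, 5.78, 5.58, 5.72 and 5.69 in control libraries 1 to 5 and 5.07, 5.04, 5.22, 5.40 and 5.64 in cytokine libraries 6 to 10. For the small subunit the means were 5.35, 5.44, 5.12, 5.30 and 5.21 in control and 4.45, 4.33, 4.90, 5.05 and 5.34 in cytokine libraries. Only library 10 reached the control range in either subunit. The large minus small difference was 0.42 ± 0.05 in control and 0.46 ± 0.19 in cytokine tumours (SD, n = 5), with the highest values in libraries 6 and 7 (0.63 and 0.71) and values of 0.32, 0.35 and 0.30 in libraries 8, 9 and 10, against 0.34 to 0.48 in the control libraries. Without library 6 the difference of medians turned to -0.11, and the small subunit median was -0.32; without libraries 6 and 7 together the subunit medians were -0.32 and -0.21.

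Summed TPM gave a wider gap, which was smaller with 2 genes set aside. The large subunit sum was 3993 ± 194 TPM in control and 3237 ± 379 TPM in cytokine tumours, and the small subunit sum was 1907 ± 244 and 1205 ± 418 TPM (SD, n = 5). The ratio of the sums ran from 1.98 to 2.50 in control and from 2.07 to 4.09 in cytokine tumours, highest in libraries 6 and 7. Without Mrps21 and Mrpl33, the genes with the widest range in TPM in their subunits, it was 3.18 ± 0.207 in control and 3.34 ± 0.332 in cytokine tumours (SD, n = 5). Those 2 were set aside after their values were seen, and only together. Mrpl33 was high in library 7 alone (849 TPM) and lay below every control in the other 4 cytokine libraries. The protein of Mrps18a and that of Mrps30 sit in the large subunit despite their symbols; counting both genes there left the medians at -0.48 and -0.53. Mrps36 is now assigned to a dehydrogenase complex of the citric acid cycle, and its log2 change was -0.52.

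**Figure D2:**
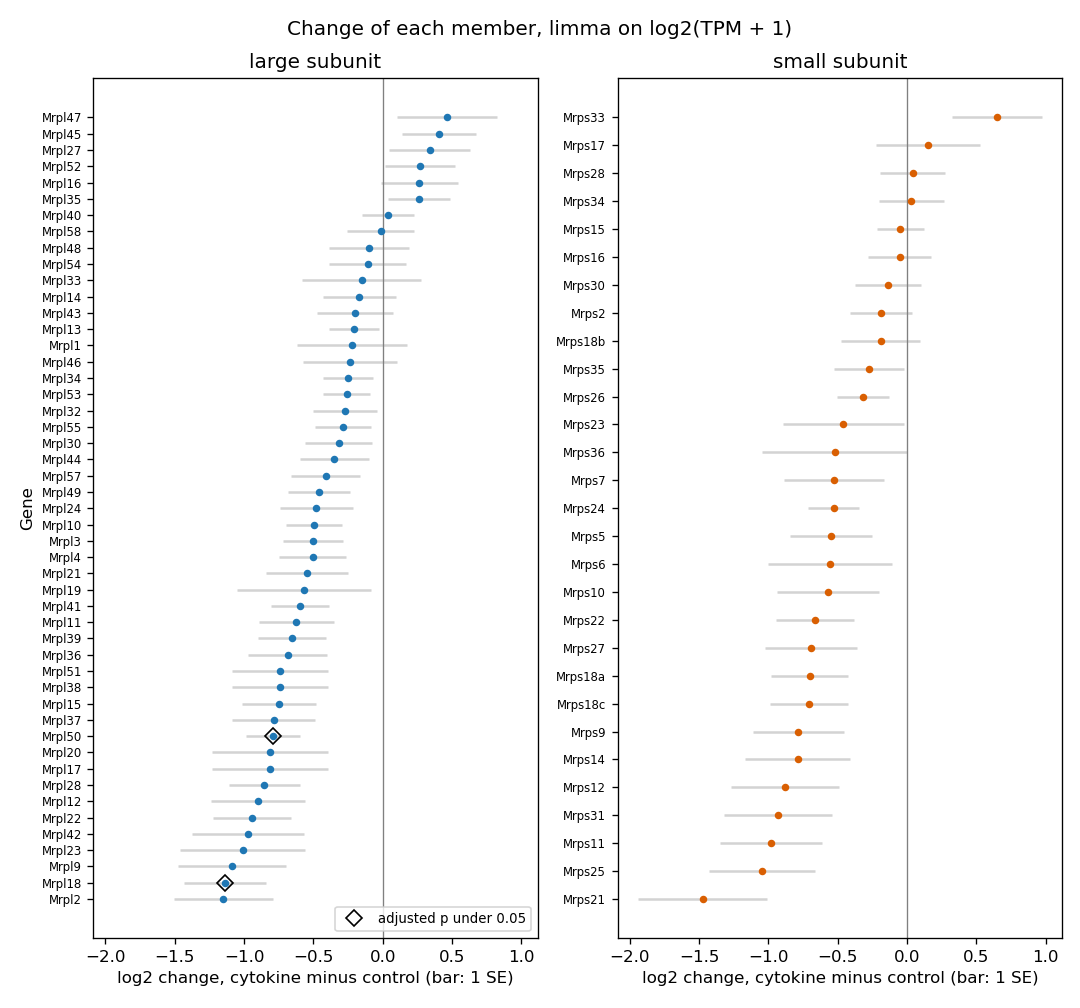
Points show the log2 change (cytokine minus control, limma on log2(TPM + 1)) of each large subunit gene on the left and each small subunit gene on the right, with bars of 1 SE; open diamonds mark an adjusted p under 0.05. Of the 78 points, 67 lie to the left of 0, and the diamonds are Mrpl18 and Mrpl50.

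In the large subunit, Mrpl18 is a protein of the central protuberance, the knob that contacts the small subunit and the transfer RNAs. Its TPM was 70.4, 78.6, 91.5, 65.4 and 40.9 in control tumours and 31.2, 36.7, 15.7, 31.2 and 42.3 in cytokine tumours. The groups overlapped only through control library 5 and cytokine library 10. Mrpl18 fell by 1.14 ± 0.30 in log2 units (SE; adjusted p = 0.0350, limma). That call was lost without any 1 of libraries 1, 2, 3, 4, 6, 8 and 9 (adjusted p of 0.0629 to 0.0846 by limma), without filtering (0.0519) and after median-ratio scaling (0.0634). Of the other central protuberance genes, Mrpl38, Mrpl46 and Mrpl48 had log2 changes of -0.74, -0.23 and -0.10, and Mrpl40 of 0.041.

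Mrpl50 encodes a large subunit protein without a bacterial counterpart. Its TPM was 35.5, 31.6, 32.8, 39.9 and 32.3 in control and 14.8, 18.3, 18.2, 23.1 and 24.0 in cytokine tumours, so every cytokine tumour, library 10 included, lay below every control. It fell by 0.79 ± 0.20 in log2 units (SE; adjusted p = 0.0303, limma). Its limma adjusted p was between 0.0507 and 0.0801 without any 1 of libraries 1 to 6, 8 and 9.

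Mrpl28, the counterpart of a bacterial protein, also had groups without overlap: 26.4, 31.0, 28.4, 33.0 and 33.8 TPM in control and 20.8, 10.8, 11.7, 17.1 and 25.6 TPM in cytokine tumours. Library 10 came within 1 TPM of the lowest control, and the change of -0.85 missed the threshold (limma adjusted p = 0.0550). Mrpl2, which lies near the centre that joins amino acids, had the lowest log2 change of the large subunit, -1.15 ± 0.36 (SE; limma adjusted p = 0.0615). Its TPM was 38.0, 68.9, 37.4, 62.9 and 62.1 in control and 12.9, 21.5, 16.3, 26.3 and 52.4 in cytokine tumours. Only library 10 overlapped with the controls. Without that library the cytokine mean was 19.2 TPM in place of 25.9.

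The stalk that recruits translation factors is built on Mrpl10, Mrpl11 and copies of Mrpl12, a protein also known to bind the mitochondrial RNA polymerase. Mrpl12 was at 157, 191, 164, 178 and 199 TPM in control and 84.4, 38.1, 102, 129 and 174 TPM in cytokine tumours, and its log2 difference was -0.90 ± 0.34 (SE; adjusted p = 0.106, limma). Libraries 6 to 9 lay below all controls and library 10 within them. With Mrpl53, all 4 stalk genes had changes below 0, from -0.90 to -0.26, and none passed the test (3 at an unadjusted p under 0.05). Over all 78 members, 85.9% were below 0 and 34.6% were lower at an unadjusted p under 0.05, so nothing is read from these counts.

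At the polypeptide exit, the 5 genes pointed in both directions and none passed the test (2 lower and 0 higher at an unadjusted p under 0.05). Over all members the shares at that threshold were 34.6% lower and 0% higher. Mrpl24 had a log2 change of -0.48, Mrpl22 of -0.94 and Mrpl23 of -1.01, the last at 0.201 TPM in library 7 against 3.35 to 8.94 TPM in control tumours. Mrpl45, which anchors the ribosome to the inner membrane, was at 17.7, 22.7, 23.6, 31.2 and 17.3 TPM in control and 46.0, 33.9, 31.2, 23.6 and 19.3 TPM in cytokine tumours. Libraries 6 and 7 were above the controls and the other 3 within them, with a log2 difference of 0.41 ± 0.27 (SE; adjusted p = 0.313, limma). Mrpl47 had a log2 change of 0.46 with an SE of 0.36, and its lowest value, 5.03 TPM, was in control library 1.

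The most abundant large subunit genes had changes on both sides of 0. Mrpl42 was at 408, 474, 387, 349 and 473 TPM in control and 155, 74.6, 285, 282 and 450 TPM in cytokine tumours, a log2 change of -0.97 ± 0.41 (SE). Mrpl52, which has no bacterial counterpart, was at 476, 426, 381, 383 and 428 TPM in control and 675, 789, 424, 417 and 338 TPM in cytokine tumours. Libraries 6 and 7 were above the controls, library 10 below, and the log2 change of 0.27 turned to -0.094 without libraries 6 and 7. Mrpl33, the counterpart of a small bacterial protein, was at 262, 262, 234, 280 and 236 TPM in control and 196, 849, 152, 146 and 170 TPM in cytokine tumours. Library 7 alone was high, and the other 4 cytokine libraries lay below every control. The log2 change was -0.15 with all libraries and -0.62 without library 7, where Mrpl33 passed the threshold (limma adjusted p = 0.0410); it was 0.018 after median-ratio scaling. Mrpl30 had a change of -0.32, and Mrpl27, which reaches toward the centre that joins amino acids, of 0.34; neither passed the test.

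**Figure D3:**
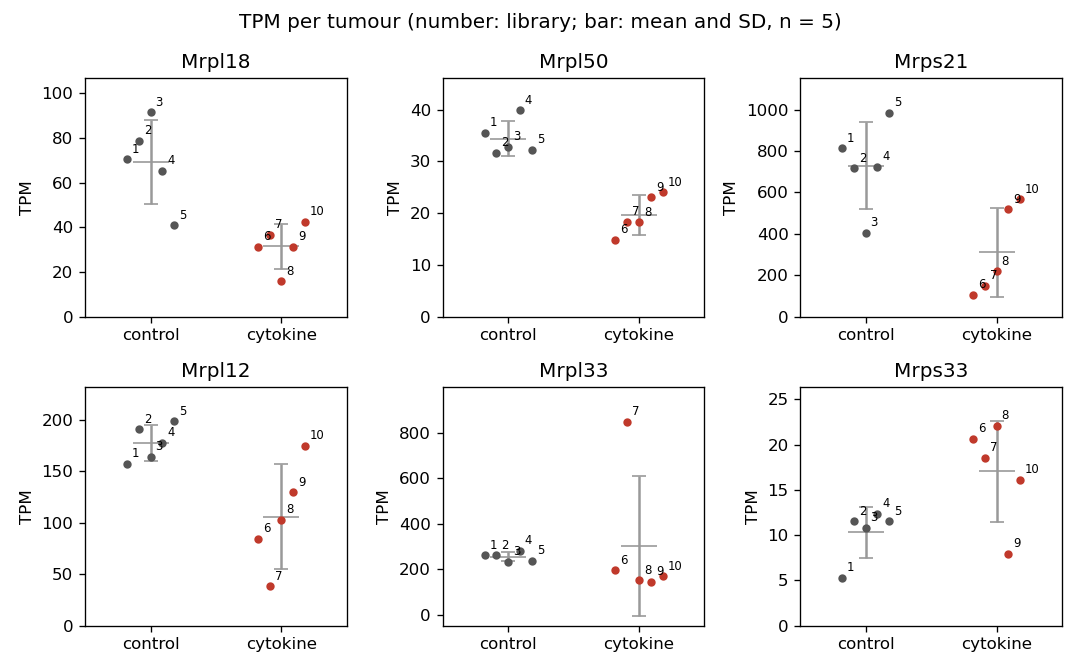
TPM of 6 members in each of the 10 tumours, numbered by library, with grey bars at the mean and SD of each group (n = 5). Mrpl50 separates the groups, Mrpl18 nearly does, Mrpl12 and Mrps21 overlap through library 10 or libraries 9 and 10, Mrpl33 is at 849 TPM in library 7 only, and Mrps33 is above all controls in 4 cytokine libraries.

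In the small subunit, Mrps21, the counterpart of a small bacterial protein, had the lowest log2 change of the family, -1.47 ± 0.47 (SE; limma adjusted p = 0.0654). It was at 814, 716, 405, 723 and 984 TPM in control and 106, 147, 218, 518 and 567 TPM in cytokine tumours. Libraries 6, 7 and 8 lay below all controls, and libraries 9 and 10 lay above control library 3. It passed limma's threshold without library 10 (-1.77) and, with all libraries, after rescaling without mitochondrially encoded genes (-1.68; adjusted p = 0.0443); without libraries 6 and 7 the change was -0.80.

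Mrps25 was at 148, 143, 126, 146 and 138 TPM in control and 55.1, 27.7, 54.1, 106 and 155 TPM in cytokine tumours. Libraries 6 to 9 were below and library 10 above the controls, and the change was -1.05 ± 0.38 (SE; limma adjusted p = 0.0954). Mrps31, whose groups did not overlap, was at 13.6, 16.8, 16.3, 14.2 and 18.0 TPM in control and 4.52, 2.71, 12.1, 13.1 and 12.7 TPM in cytokine tumours. Its 3 nearer libraries lay just under the lowest control, and its change was -0.93 (limma adjusted p = 0.132).

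Genes of the messenger RNA channel and the decoding site all had changes below 0, and none of the 4 passed the test (2 at an unadjusted p under 0.05). Over all members, 85.9% were below 0 and 34.6% were lower at that threshold, so nothing is read from these counts. Mrps24, which lines the entry of the channel, had the tightest control values of these, 75.7, 79.4, 78.2, 79.9 and 79.6 TPM, and 46.0, 45.3, 53.6, 54.4 and 75.9 TPM in cytokine tumours. Libraries 6 to 9 stood well apart from the controls and library 10 did not, with a change of -0.53 ± 0.18 (SE; limma adjusted p = 0.0835). Mrps12, of the decoding site, had a change of -0.88, Mrps5 of -0.55 and Mrps2 of -0.19.

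Of the 3 paralogs of the bacterial S18 protein, Mrps18c and Mrps18a had nearly the same log2 change, and that of Mrps18b was nearer 0. Mrps18c, the member that takes the bacterial position, was at 110, 102, 94.6, 109 and 119 TPM in control and 64.3, 69.3, 48.3, 41.1 and 131 TPM in cytokine tumours, with a change of -0.71 ± 0.28 (SE). Mrps18a had a change of -0.70 ± 0.28 (SE), with its cytokine values from 17.2 to 45.4 TPM and its control values from 43.9 to 76.0 TPM. Mrps18b had a change of -0.19 ± 0.28 (SE), which was 0.079 without libraries 6 and 7, and its groups overlapped throughout (28.3 to 65.7 against 40.5 to 79.9 TPM). None of the 3 passed the test, and the differences among them were not tested.

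Mrps33, a protein found only in mitochondrial ribosomes, had the highest log2 change of the family, 0.65 ± 0.32 (SE; limma adjusted p = 0.192). It was at 5.30, 11.5, 10.8, 12.4 and 11.5 TPM in control and 20.6, 18.5, 22.1, 7.90 and 16.1 TPM in cytokine tumours. All cytokine libraries but library 9 lay above every control, library 10 among them. Mrps30 and Mrps23 had changes of -0.14 and -0.46, within the spread between tumours.

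Members were also divided by whether the protein has a bacterial counterpart, a difference that was not tested. In the large subunit the median change was -0.51 over 30 genes with a counterpart (26 below 0) and -0.35 over the other 19 (16 below 0). For the small subunit it was -0.55 over 16 genes (14 below 0) and -0.46 over 13 (11 below 0). Mrps18a and Mrps18b, though paralogs of a bacterial protein, were counted with the 13, as was Mrps36. The control level had a weak relation to the change, with Spearman's rho of -0.24 over the 78 genes, which share the same 10 libraries. Control values enter both sides of this relation, and the log2(TPM + 1) scale understates changes of low genes, so nothing is read from it.

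Of the 69 members with a promoter window, 26 had another gene starting in the opposite direction within 1000 bases upstream, and in 24 the neighbour was itself tested. Both genes had a log2 change below 0 in 17 of these 24, both were above 0 in 0, and the signs were opposite in 7. Of the 24 neighbours, 20 had a change below 0 (83.3%, against 60.3% of all genes tested). Most of the 78 members were also below 0 (85.9%). Many pairs with both genes below 0 follow from these shares alone, so nothing is read from the 17. Mrpl46 and Mrps11, counted from both sides, start 42 bases apart. Mrps11 was at 39.5, 31.3, 19.7, 21.5 and 29.8 TPM in control and 5.97, 9.62, 18.5, 14.2 and 27.1 TPM in cytokine tumours, while Mrpl46 was at 18.2, 13.7, 6.72, 12.8 and 12.2 and at 16.8, 13.4, 5.63, 7.26 and 11.5 TPM. Their log2 changes were -0.98 ± 0.37 and -0.23 ± 0.34 (SE), and neither passed the test. Mrps12 and Sars2, the mitochondrial seryl-tRNA synthetase, start 147 bases apart and had changes of -0.88 and -0.72. Mrpl43 and Twnk, the mitochondrial DNA helicase, start 116 bases apart, with changes of -0.20 and -0.71. Mrpl18 starts 238 bases from Tcp1, a subunit of the cytosolic chaperonin, which had a change of -0.96 (limma adjusted p = 0.0811). Mrpl47 had a change of 0.46 and its neighbour Ndufb5, of respiratory complex I, -0.43. Among the neighbours, 3 fell (Fau next to Mrpl49, Ncapd2 next to Mrpl51 and Ska3 next to Mrpl57) and 1 rose (Pnpla7, 935 bases from Mrpl41), against 3.02% and 7.41% of all genes; these were named after their values were seen.

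Other genes of mitochondrial gene expression were read as lists, and differences between lists were not tested. Beside the counts of each list, 60.3% of all genes tested lay below 0. At an unadjusted p under 0.05, 16.1% of all genes were lower and 14.4% higher. Of 6 mitochondrial ribosome proteins with other symbols none passed the test (0 in either direction at an unadjusted p under 0.05), and their median change was -0.21. Dap3, a GTP-binding small subunit protein, averaged 97.1 ± 10.2 TPM in control tumours and 108 ± 22.4 TPM in cytokine tumours (SD, n = 5). None of 20 assembly factors passed, with a median of -0.20 and 3 higher and 2 lower at an unadjusted p under 0.05. Malsu1, which keeps the subunits from joining too early, was at 160, 137, 150, 164 and 97.6 TPM in control and 550, 340, 219, 263 and 140 TPM in cytokine tumours. Libraries 6 to 9 lay above every control, with a change of 0.96 ± 0.33 (SE; limma adjusted p = 0.0807). The 13 translation factors had a median of -0.43, the 17 mitochondrial aminoacyl-tRNA synthetases of -0.23, and the 15 genes of mitochondrial DNA expression of -0.41, with none called in any of the 3 lists (2, 1 and 0 higher and 4, 1 and 3 lower at an unadjusted p under 0.05). Gfm1, the elongation factor that moves the ribosome along, had a change of -0.92 ± 0.37 (SE). Among 10 regulators of mitochondrial gene expression, none passed either (0 higher and 2 lower at an unadjusted p under 0.05); their median was -0.52, with 8 below 0, and Myc was at 183 ± 75.5 and 100 ± 59.0 TPM (SD, n = 5).

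The products and partners of the mitochondrial ribosome were as follows. All 13 mitochondrially encoded protein genes were listed, but only 7 had a TPM of 1 or more in 5 or more libraries and could be tested. All 7 changes lay below 0, with a median of -1.21 and none called (5 lower and 0 higher at an unadjusted p under 0.05). The median leaves out the others, which were under that level in most libraries. mt-Cytb was at 76057 ± 18491 TPM in control and 32804 ± 18104 TPM in cytokine tumours (SD, n = 5). Nuclear subunits of complexes I, III and IV had medians of -0.23, -0.48 and -0.44. In these, 1 of 36 complex I genes fell (Ndufa3; 8 lower and 1 higher at an unadjusted p under 0.05) and 1 of 9 complex III genes (3 lower and 0 higher; Cyc1, the haem-bearing cytochrome c1, from 87.6 ± 8.22 to 50.6 ± 10.8 TPM; SD, n = 5), and 0 of 9 complex IV genes passed (2 lower and 0 higher at an unadjusted p under 0.05). For 15 genes of ATP synthase the median was -0.28, with none called and 2 lower and 0 higher at an unadjusted p under 0.05. Cytosolic ribosomal protein genes had a median of -0.63 over 74 genes, and 4 of them fell (5.41%, against 3.02% of all genes). At an unadjusted p under 0.05, 31 were lower and 2 higher, against 16.1% and 14.4% of all genes. The median of the members lay between those of complex I and of the cytosolic ribosome.

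**Figure D4:**
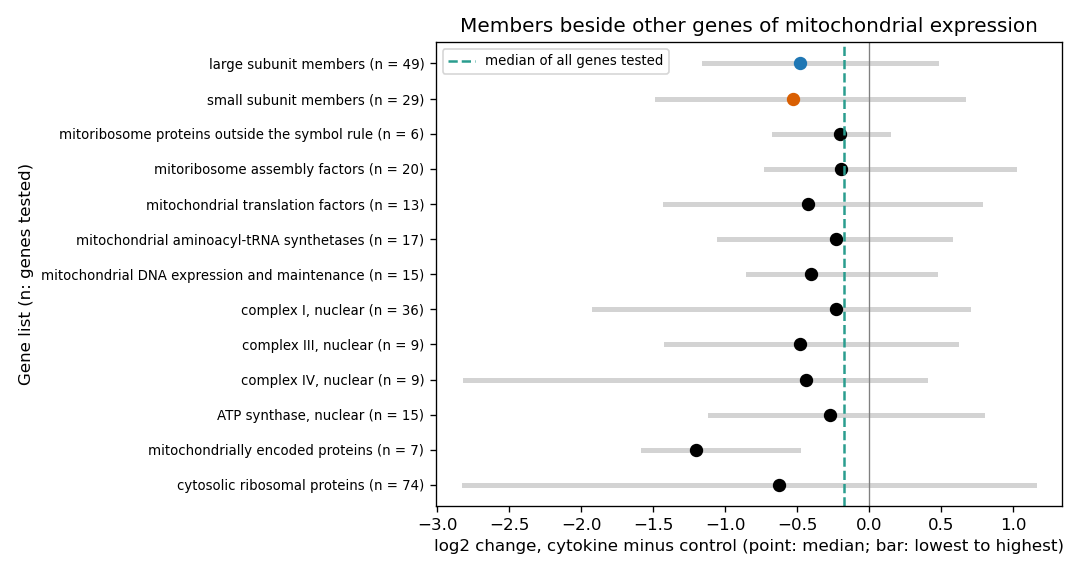
Median log2 change (points) and range (bars) of each gene list, with the number of genes tested; the dashed line is the median of all genes tested, -0.18. Large and small subunit members lie at -0.48 and -0.53, mitochondrially encoded genes at -1.21 and cytosolic ribosomal proteins at -0.63.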

How the data were processed

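The authors deposited TPM for 10 tumours and 22329 mouse gene symbols in 1 table. Per the labels' protocols, stranded libraries were made from polyA RNA. The submitters' processing notes name STAR and GRCh38, a human build, so the build used is unclear; printed coordinates are those of RefSeq's GRCm38.p6 promoter table. The sources used here name no annotation or counting program. Depth is unknown, and because TPM are shares, a rise of abundant genes lowers others.

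Genes with a TPM of 1 or more in 5 or more libraries (12497) were compared as log2(TPM + 1) by limma 3.58.1 in R 4.3.3 (eBayes with trend, 2-sided, Benjamini-Hochberg over all genes tested, threshold 0.05). This scale understates changes of low genes. On simulated data of 12497 genes, 30% of 2-fold and 72% of 4-fold changes were called, with 4 false calls. The simulation changed 200 of the more abundant genes, with independent normal errors and 1 spread per gene for both groups. It left out the wider spread of the cytokine libraries and the shared shifts within a library, so these shares may not hold for the real comparison. Members and lists were chosen with earlier results of these data known. The rule named the most and least abundant, called or most extreme members, the S18 paralogs, Mrps30 and the most abundant of each structural group; other members were added for context or after their values were seen. Alternatives were pseudocounts of 0.1 and 5, other filters, scalings, variance settings and weights, libraries left out, and other subunit assignments.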

Additional observations from a re-analysis of the deposited data

Results flagged for a closer look

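In 56 groups of 5 libraries checked, 3 values stood apart from the rest of their group by Dixon's criterion, where chance gives about 1 in 20. A count of 3 is near what that rate gives over 56 groups, so nothing is read from the count. Mrpl33 was at 849 TPM in cytokine library 7, with the next highest cytokine library at 196 TPM. Mrps33 was at 5.30 TPM in control library 1, with the next control at 10.8 TPM. The ratio of summed large to small subunit TPM was 2.50 in control library 3, with the next control at 2.09.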

How the results depend on the processing

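No member was called higher in any setting run. The count of members called lower was 2, and it was 1 without a filter on low values, 4 after rescaling without the 50 most abundant genes, 9 after rescaling without mitochondrially encoded genes, 13 with library quality weights and 0 without libraries 6 and 7; leaving out 1 library at a time gave 0 to 20. The share of all genes tested that limma called lower moved too. In the order of the settings just named it was 0.971%, 4.47%, 7.08%, 9.41% and 0%, against 3.02% beside the count of 2. With single libraries left out, that share ran from 0.114% to 12.8%. The moves in the count are therefore not read as particular to these members. The large and small subunit medians moved to -0.69 and -0.74 after rescaling without mitochondrially encoded genes. Without libraries 6 and 7 they were -0.32 and -0.21. With single libraries left out, the large subunit median ran from -0.55 to -0.40 and the small from -0.68 to -0.32. The large minus small difference of medians was -0.10 with quality weights and -0.11 without libraries 6 and 7, and from -0.11 to 0.13 with single libraries left out. The cause of these moves was not tested. Over 439 checks of 22 members, the sign changed in 7, which belong to 5 members: Mrpl52 (-0.094), Mrps18b (0.079) and Mrps23 (0.19) without libraries 6 and 7, Mrpl33 (0.018) and Mrps30 (0.025) after median-ratio scaling, Mrps23 (0.060) with quality weights, and Mrpl33 (0.0100) without library 9, whose change ran from -0.62 to 0.0100 over the single libraries left out. No member carried a pseudogene suffix, so leaving such rows out changed nothing. No paired analysis was possible because no library number is shared between the groups. TPM keep no depth, so what depth limits cannot be said.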
